A study of Mus musculus with 547 samples.

Results

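The cells described here are 22 fetal mouse liver cells that were taken from explants treated with TPPB, sorted as EpCAM+ and annotated cholangiocyte by the authors. They were chosen by those labels, from 529 single cells in all, and were set against 34 EpCAM+ cells annotated cholangiocyte that came directly from embryos at E17.5, where E stands for embryonic day. The TPPB explants were major liver lobes of E12.5 embryos kept for 2 days on membranes in medium with 10% serum, EGF and an insulin, transferrin and selenium supplement, with 0.5 µM TPPB. Control explants had the same culture with DMSO, the solvent, and gave 22 cells annotated cholangiocyte. Explants of E12.5 embryos kept for 2 days with 10 µM U0126, alone or with 0.5 µM TPPB, gave 13 and 9 cells annotated cholangiocyte. These enter the fit that gives the p-values. The embryos gave 17 such cells at E14.5, which is the total age of the explants, 36 at E15.5 and 34 at E17.5, with no culture. For 1 of the E14.5 cells the protocol labels read as for explants. Its culture time and treatment read na, and it was kept with the embryo cells. TPPB cells and E17.5 cells thus differ in the agent, in the culture and its medium, in age, and in the gate, which reads EpCAM+ for explants and P2 gate, EpCAM+ for embryos. Effects of these 4 differences cannot be told apart between the TPPB and E17.5 cells, and only the comparison with control explants holds the culture fixed. Strain is not among the labels used here.

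Cholangiocytes are the epithelial cells that line bile ducts. In the fetal liver they arise from hepatoblasts, bipotent progenitors that otherwise become hepatocytes, and on the way they lose serum protein genes such as those for albumin and alpha-fetoprotein and gain keratins, SOX9 and transporters that modify bile. EpCAM is an adhesion molecule of the surface of ductal cells and is the basis of the sort. TPPB is a benzolactam that activates protein kinase C, a family of kinases that signals among other routes through the ERK cascade to AP-1 transcription factors. The comparison asks in which genes cells exposed to TPPB match the late embryonic state, which they fail to reach and which they pass.

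Each cell was read by Smart-seq2, a full-length cDNA protocol without molecular identifiers, so that counting limits cover counting error only. TPPB cells had 995913 to 1245872 gene reads each and a median of 9351.5 genes with reads, and E17.5 cells had 782452 to 1520866 reads and a median of 9113 genes. Spike-in RNA took a median of 2.49% of the reads in TPPB cells and 2.40% in E17.5 cells. Reads were summed over the cells that share a set number, which gave 2 TPPB sums (sets 1 and 2, of 10 and 12 cells) and 3 E17.5 sums (sets 1, 3 and 4, of 15, 4 and 15 cells), besides 3 sums each for control explants, E14.5 and E15.5. By set, the median spike-in share was 0.99 and 3.97% in TPPB cells and 1.65, 2.56 and 3.45% in E17.5 cells. The 2 TPPB sets had medians of 9514.5 and 8421 genes with reads. Values below are normalised CPM, the gene's share of a sum's reads after TMM scaling, for each sum in the order of the sets. Levels are in that unit throughout, and changes are log2 fold changes ± SE. A gene was called when edgeR's quasi-likelihood test gave a Benjamini-Hochberg adjusted p under 0.05 over 15060 genes, and all adjusted p values below are of that kind. The labels do not say what a set is, so p-values measure only the spread between sets, which may be technical.

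Of the 15060 genes, 213 (1.41%) were higher and 565 (3.75%) were lower in TPPB cells than in E17.5 cells. Against control explants, 228 (1.51%) were higher and 645 (4.28%) lower in TPPB cells. The split depends on scaling: with library totals and no TMM factors, 474 genes were higher and 445 lower against E17.5, and the median over all genes was 0.37 instead of 0.00. Against control explants the same setting gave 733 higher and 432 lower and a median of 0.64 instead of 0.03. Among genes named below as called against E17.5, Anxa1, Cdkn1a, Flt1, Hmgcs1, Prom1 and Soat2 were called in 4 of 10 alternative settings, 5 of which leave out 1 sum. Cldn12, Gjb2, Gm26880, Hsd11b2, Nes, Nfkbia, Prss22, Vtcn1 and Wnt7a were called in 3 of them. For Nes and Prss22 only 9 of the settings gave a value. Such counts were made only for genes picked by the naming rules. Clu, Igf2, Itga6, Ttr and Trf, among others called below, have none.

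Hepatocyte genes, which E17.5 cells annotated cholangiocyte still carried, were nearly silent in TPPB cells. Of 24 hepatoblast and hepatocyte genes listed for this comparison, 22 were lower in TPPB cells than in E17.5 cells and none was higher, beside 3.75% of all genes called lower. The median change of the list was -7.75 on the log2 scale, or -7.34 with 3 members that one side lacks set at their bound, against 0.00 over all genes. Without TMM factors the list's median was -7.39. Against control explants, 20 of the 24 were lower, beside 4.28% of all genes.

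Albumin, the main serum protein of hepatocytes, is encoded by Alb (chr5:90460900-90476600 on GRCm38). Alb had 142 and 21.6 CPM in the TPPB sums, against 36167, 26106 and 39612 CPM in the E17.5 sums and 49227, 12734 and 22128 CPM in control explants. Every TPPB sum lay below every sum of the other groups, and the change against E17.5 was -8.70 ± 1.02 (adjusted p 5.31e-05). Afp, for alpha-fetoprotein, the main serum protein of the fetal liver, had 1578 and 196 CPM in TPPB cells, against 23175, 12444 and 18957 CPM at E17.5, a change of -4.36 ± 0.79 (adjusted p 0.00284). The TPPB sums again did not overlap with the others, since Afp stood at 113433, 47952 and 63110.3 CPM in control explants. In the first TPPB sum, 1 of 10 cells held 97.2% of the Afp reads and 96.6% of the Alb reads, so the value of that sum is mostly that of 1 cell.

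Apoh, for a phospholipid-binding plasma protein, was almost without reads in TPPB cells, at 0.142 and 0.109 CPM, against 2143, 1405 and 1883 CPM at E17.5 (-13.70 ± 0.84, adjusted p 8.5e-08). Control explants lay between them, at 154, 152 and 253 CPM. Vtn, for the adhesive plasma protein vitronectin, had 8.67 and 4.94 CPM in TPPB cells and 7144, 5788 and 5701 CPM at E17.5, a change of -9.84 ± 0.66 (adjusted p 2.29e-07). Ttr, for the thyroid hormone carrier transthyretin, fell to 89 and 100.4 CPM in TPPB cells, against 3369, 3296 and 3501 CPM at E17.5 and 10778, 5046 and 3592 CPM in control explants. Trf, for transferrin, the iron carrier of plasma, had 21 and 8.8 CPM in TPPB cells and 2504, 1752 and 2177 CPM at E17.5. For Vtn, Ttr and Trf the groups did not overlap, and each was called lower against both E17.5 and control explants.

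Of the 2 members that were not called, Hnf4a encodes a nuclear receptor that drives hepatocyte genes. Hnf4a kept 45.5 and 37 CPM in TPPB cells, against 47.2, 49.9 and 65 CPM at E17.5, and 20 of 22 TPPB cells had reads of it. Its change was -0.39 ± 0.45 (adjusted p 0.767), with a 95% interval of -1.38 to 0.60. The other, Tat, for a tyrosine-degrading enzyme, had reads only in 1 E17.5 sum and in no TPPB sum.

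**Figure D1:**
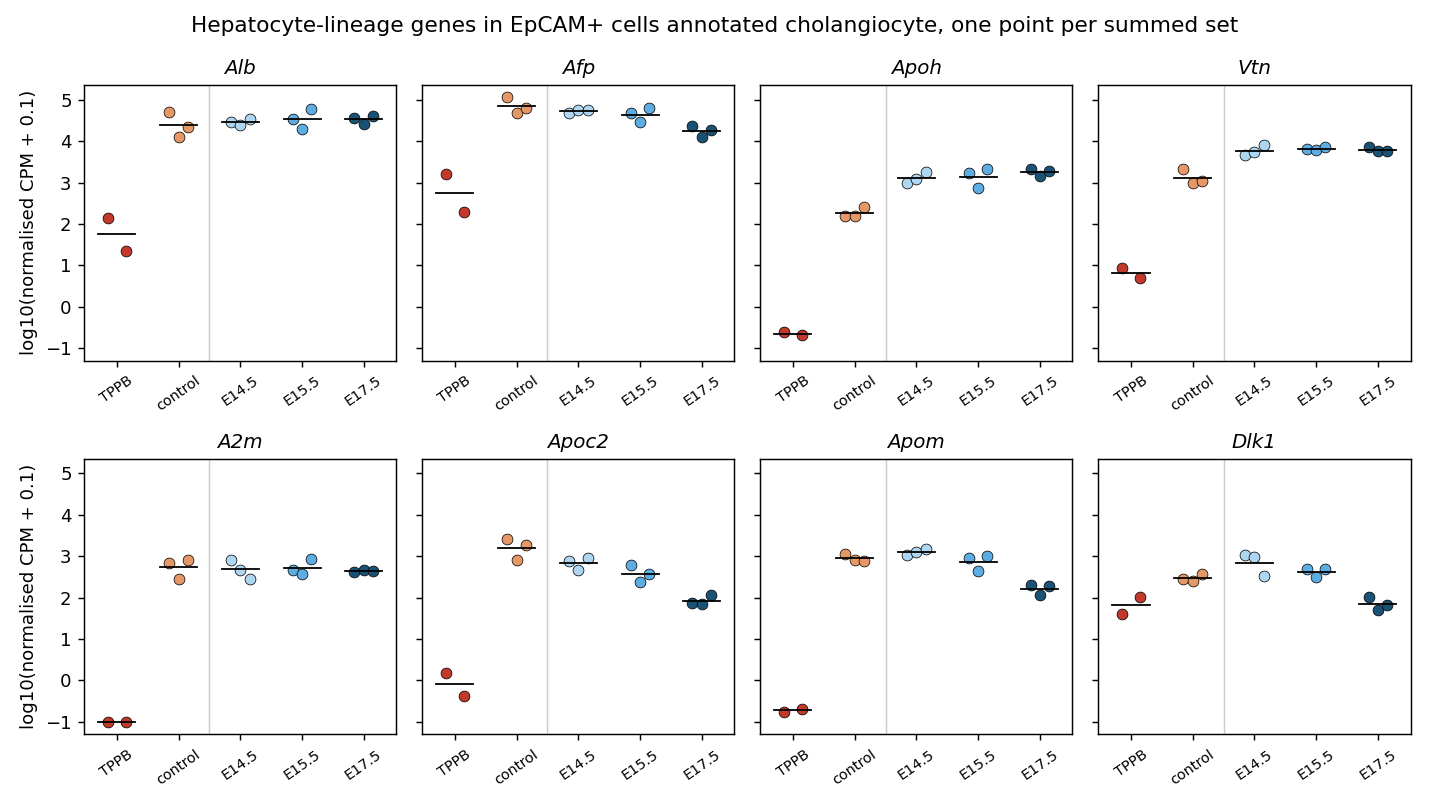
Levels of 8 hepatocyte-lineage genes in each sum, as log10 of normalised CPM plus 0.1, for TPPB and control explants and for embryos at E14.5, E15.5 and E17.5; each point is 1 sum and each bar the mean of the log values. The TPPB points lie below all other points for Alb, Afp, Apoh, Vtn, A2m, Apoc2 and Apom, and for Dlk1 they overlap with the E17.5 points.

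As a share of all gene reads, the 24 genes took 0.0936 to 0.301% in TPPB sums, at least 11.51% in control explants, 11.7 to 15.3% at E14.5, 7.79 to 18.2% at E15.5 and 7.10 to 10.8% at E17.5. The TPPB sums lay below all sums of the other groups. E17.5 cells annotated hepatoblast/hepatocyte and sorted as DLK+ are the upper end of this scale, with the lowest and the highest of 4 sums at 151508 and 171519 CPM for Alb. Whether Alb reads in E17.5 cholangiocytes come from the cells themselves or from RNA carried over in picking was not tested.

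The 10 largest falls against E17.5 were those of A2m, Itih3, Apoh, Hao2, Sult1a1, Kng2, Iyd, Ftcd, Aadac and Mat1a. A2m, for the protease inhibitor alpha-2-macroglobulin, had no read in either TPPB sum, against 409, 465 and 444 CPM at E17.5 and 698, 281 and 796 CPM in control explants. With a floor of 3 reads per library, A2m was at least 2337-fold lower in TPPB cells than at E17.5 (adjusted p 8.27e-06). Kng2, for a kininogen, and Ftcd, for a histidine-degrading enzyme, likewise had no reads in TPPB cells. They were at least 901-fold and at least 794-fold lower than at E17.5, where Kng2 had 215, 112 and 182 CPM and Ftcd had 161, 117 and 169.9 CPM. Mat1a, for the liver's methionine adenosyltransferase, was at least 781-fold lower, with 95, 51.3 and 294 CPM at E17.5. Itih3, for a chain that binds hyaluronan, and Aadac, for a lipid deacetylase, each had 0 and 0.0543 CPM in the TPPB sums, at most 3 reads in all, against 1275, 826 and 852 CPM for Itih3 and 545, 462 and 478 CPM for Aadac at E17.5. Iyd, for the deiodinase of iodotyrosine, was at least 816-fold lower, and it was already low in control explants, at 0, 5.78 and 1.25 CPM.

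Both Hao2 and Sult1a1 had no reads in TPPB or control explants. Hao2, for a peroxisomal hydroxy acid oxidase, had 174, 226 and 158 CPM at E17.5 and was at least 989-fold lower in TPPB cells (adjusted p 1.92e-05). Sult1a1, for a phenol sulfotransferase, had 148, 136 and 234 CPM at E17.5 and was at least 918-fold lower in TPPB cells (adjusted p 0.000467). At E14.5, the total age of the explants, Hao2 had 37.3, 51.3 and 88.3 CPM and Sult1a1 had 16.6, 4.66 and 54.4 CPM.

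Genes of bile duct identity were expressed widely in TPPB cells, with few calls against E17.5. Of 20 biliary genes, none was higher and 1 was lower in TPPB cells than at E17.5, beside 1.41% and 3.75% of all genes, and the list's median change was -0.06. That median stands over members that go both ways, since the TPPB sums lay wholly above the E17.5 sums for 9 of the 20 and wholly below them for 8, beside 21.5% and 19.7% of all genes. Other settings called 0 to 6 of the 20 higher. Against control explants, 7 of the 20 were higher in TPPB cells and none was lower, beside 1.51% and 4.28% of all genes. The median there was 1.90. Control explants had 1 of the 20 higher and 8 lower than E17.5, beside 4.26% and 3.36% of all genes. A p that misses the threshold does not show that levels are alike, and the intervals below give the differences that these sums allow.

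Spp1, for the secreted phosphoprotein osteopontin of duct cells, had 8219.7 and 9794 CPM in TPPB cells, against 7946, 6163 and 9957 CPM at E17.5. All 22 TPPB cells and all 34 E17.5 cells had Spp1 reads. Its spread in control explants was extreme, at 8784, 3.81 and 0.235 CPM, and the 95% interval of the change against E17.5 ran from -4.37 to 4.71. Sox9, for a transcription factor of duct progenitors, had 195 and 503 CPM in TPPB cells and 491, 608 and 563 CPM at E17.5, with an interval of -1.53 to 0.20. Control explants lay lower, at 58.8, 167 and 111 CPM, and the rise of 1.63 ± 0.38 in TPPB cells over them was called (adjusted p 0.0159).

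Spon1, for the matrix protein F-spondin, had 146 and 69.1 CPM in TPPB cells and was almost absent from control explants, at 0, 0.116 and 0.783 CPM. The rise over control explants was 7.97 ± 1.03 (adjusted p 0.000118). The E17.5 sums lay higher still, at 334, 489 and 436 CPM, and the difference of -1.96 ± 0.80 from them was not called (adjusted p 0.196). Bicc1, for an RNA-binding protein whose loss gives cystic ducts, showed the same order, with 52 and 136 CPM in TPPB cells, 20.9, 8.78 and 3.99 CPM in control explants and 266, 337 and 257 CPM at E17.5. Pkhd1, the gene of recessive polycystic kidney and liver disease, had 51.6 and 126.2 CPM in TPPB cells, 13.9, 2.08 and 3.37 CPM in control explants and 249, 187 and 186 CPM at E17.5. Both rose against control explants (adjusted p 0.00209 for Bicc1 and 0.0102 for Pkhd1) and neither was called against E17.5.

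The keratins of simple and ductal epithelium did not move as 1 group. Krt7 had 1285 and 543 CPM in TPPB cells, against 55.1, 116 and 92.4 CPM at E17.5 and 0.332, 5.66 and 14.2 CPM in control explants. The TPPB sums lay above all the others, the change against control explants of 6.97 ± 1.18 was called (adjusted p 0.00152), and that of 3.38 ± 1.02 against E17.5 missed the threshold (adjusted p 0.07). Krt19 had 556 and 554 CPM in TPPB cells, against 30.9, 137 and 75.1 CPM at E17.5, a change of 2.78 ± 0.79 that also missed it (adjusted p 0.0544). In control explants Krt19 was already at 318, 277 and 147 CPM. Over 10 alternative settings, Krt7 and Krt19 were each called higher than E17.5 in 3. Krt8 and Krt18, of all simple epithelia, had 1933 and 1868 CPM and 1929 and 1395 CPM in TPPB cells and 1909, 2951 and 2084 CPM and 952, 1135 and 1045 CPM at E17.5, with neither called.

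The remaining duct markers were also not called against E17.5, with 1 exception. Epcam, the sorted surface protein, had 1133 and 995 CPM in TPPB cells and 578, 665 and 535 CPM at E17.5, and since it served in the sort it is no finding. Cdh1, for E-cadherin, had 294 and 222 CPM and 436, 430.5 and 504 CPM in the same groups. Onecut2, for a transcription factor of the early ducts, had 289.6 and 464 CPM in TPPB cells, 21.2, 75.6 and 20.3 CPM in control explants and 171, 207 and 209 CPM at E17.5, and was called only against control explants. Ehf, for an ETS factor of epithelia, had 92.4 and 117 CPM in TPPB cells, against 3.64, 0 and 1.91 CPM at E17.5, a change of 5.71 ± 1.96 with an adjusted p of 0.118. The exception was Prom1, for the membrane protein CD133, which fell to 61 and 79 CPM in TPPB cells, against 186, 177 and 276 CPM at E17.5 (-1.61 ± 0.42, adjusted p 0.0349). That call was made in 4 of 10 alternative settings.

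**Figure D2:**
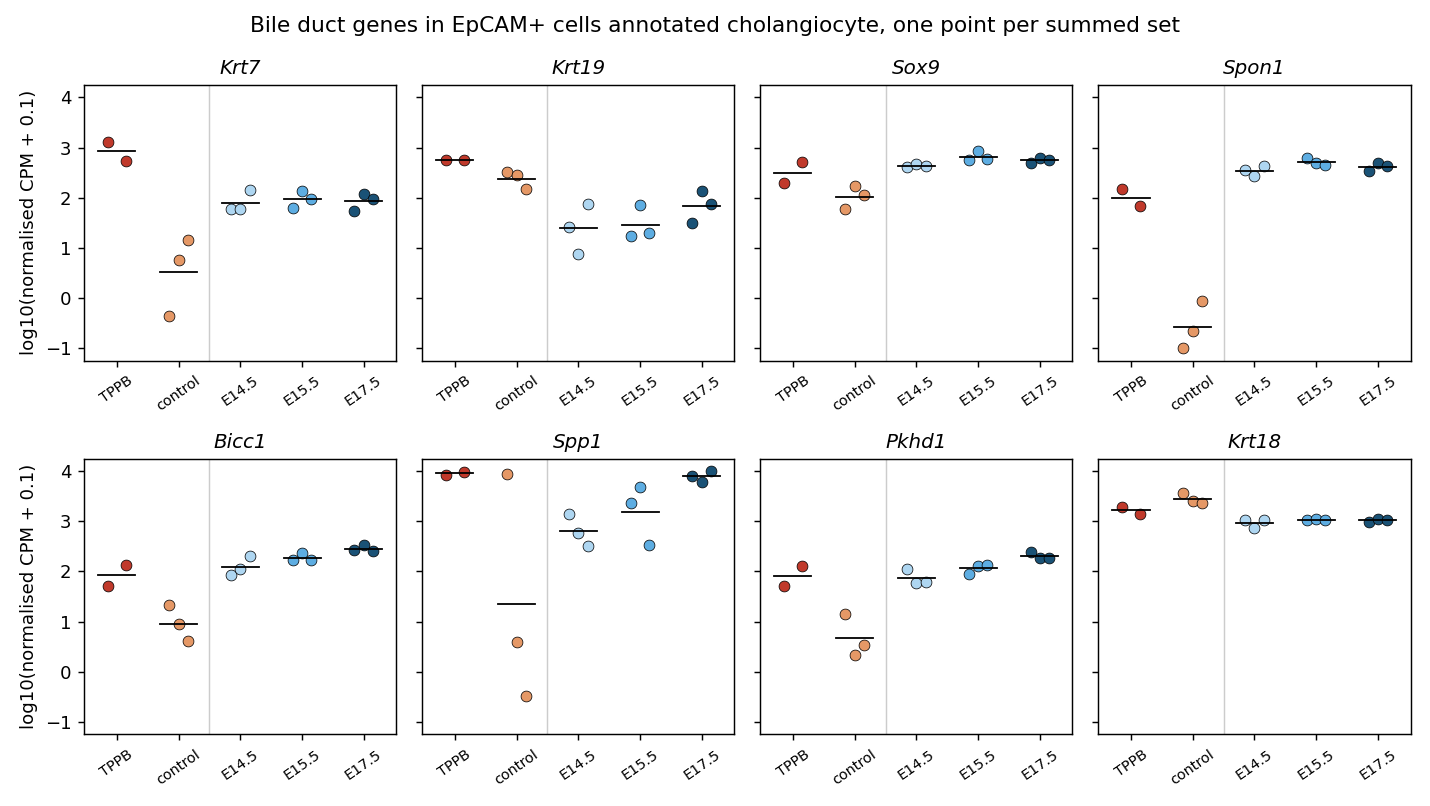
Levels of 8 genes of bile duct cells in each sum, as log10 of normalised CPM plus 0.1, for TPPB and control explants and for embryos at E14.5, E15.5 and E17.5; each point is 1 sum and each bar the mean of the log values. Spon1 and Krt7 are near the bottom of the axis in control explants and not in TPPB explants, and Bicc1 and Pkhd1 are lower in control explants than in TPPB explants and highest at E17.5 of these 3 groups.

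The markers Sox9, Krt19, Krt7, Spp1, Epcam, Spon1 and Cdh1, taken to define cholangiocytes, had reads in at least 21 of the 22 TPPB cells. For the TPPB cells the label matches these markers. In E17.5 cells Krt19 was the least widespread of them, with reads in 21 of 34 cells. Control explant cells carry the same label, though their Spon1 and Krt7 levels, given above, lay below those of all TPPB and E17.5 sums. Spp1 was nearly absent from all control sums but the first.

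The embryonic course itself gave few calls at this number of sums. Between E17.5 and E14.5 cholangiocytes, 7 genes (0.0465%) were higher and 5 (0.0332%) were lower at E17.5. An unadjusted p under 0.05 was reached by 1448 genes, and DESeq2 called 328. The called genes described here are therefore given by name. All E17.5 and TPPB sums are of libraries with a description among their labels, while 1 E14.5 and 1 control sum are of libraries where it is empty, taken here as a second deposit round. With round as a term 2 of the 7 higher and 3 of the 5 lower genes were still called, Dlk1 and Bex2 among them.

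Of the 5 genes that fell along the course, 2 had reached the E17.5 level in TPPB cells. Dlk1, a surface protein of hepatoblasts, had 40.4 and 104 CPM in TPPB cells, against 280.2, 247 and 363 CPM in control explants. In the embryo it had 105, 50.2 and 64.7 CPM at E17.5 and 1045, 963 and 326 CPM at E14.5. TPPB cells were lower than control explants (-2.04 ± 0.52, adjusted p 0.026) and overlapped with E17.5 (-0.03 ± 0.48, interval -1.09 to 1.03). Bex2, for a small adaptor protein, had 47.2 and 52.5 CPM in TPPB cells, 486, 764 and 675 CPM in control explants, 91.4, 37.1 and 65 CPM at E17.5 and 260.4, 338 and 335 CPM at E14.5. Its change against control explants was -3.69 ± 0.41 (adjusted p 2.34e-05) and against E17.5 -0.38 ± 0.35 (interval -1.15 to 0.39).

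The other 3 falling genes went below E17.5 in TPPB cells. Apoc2, for the cofactor of lipoprotein lipase, had 1.42 and 0.326 CPM in TPPB cells, against 72.4, 72.2 and 114 CPM at E17.5, 769, 467 and 906 CPM at E14.5 and 2679, 832 and 1908 CPM in control explants. It was -6.66 ± 0.72 against E17.5 (adjusted p 2.39e-05). Its TPPB sums lay below all the others, and its E17.5 sums lay below those of E14.5 and control explants. Apom, for an apolipoprotein that carries sphingosine phosphate, had 0.0711 and 0.109 CPM in TPPB cells, a few reads in all, against 198, 119 and 194 CPM at E17.5 and 1075, 1298 and 1519.5 CPM at E14.5 (adjusted p 3.41e-08 against E17.5). Soat2, for the enzyme that esterifies cholesterol in hepatocytes, had 7.39 and 11 CPM in TPPB cells and 39.8, 27.5 and 23.2 CPM at E17.5 (-1.71 ± 0.43, adjusted p 0.029), a call kept in 4 of 10 alternative settings.

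None of the 7 genes that rose along the course was both raised by TPPB and level with E17.5. Gm26880, a gene model without a known role, rose in TPPB cells over control explants but stopped at 104 and 105 CPM, against 208, 231 and 209.7 CPM at E17.5 and 23.9, 40.6 and 48.2 CPM in control explants. Its shortfall from E17.5 was -1.05 ± 0.28 (adjusted p 0.0398), a call made in 3 of 10 alternative settings.

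A further 5 of the 7 were not called between TPPB and E17.5 cells. S100a10, for a partner of annexin A2, had 368 and 296 CPM in TPPB cells, 349.9, 419 and 143 CPM in control explants, 178, 224 and 175 CPM at E17.5 and 18.9, 16.9 and 48.2 CPM at E14.5. Both TPPB sums lay above the E17.5 sums and control explants overlapped with them. Ifitm3, for an antiviral membrane protein, had 98.2 and 120.4 CPM in TPPB cells, against 444, 389 and 553 CPM in control explants, and was lower than in control explants (adjusted p 0.0124). Its embryo levels were 51.9, 62.4 and 32.5 CPM at E17.5 and 7.93, 10 and 2.4 CPM at E14.5. Ubl3 had 21 and 27.8 CPM in TPPB cells and 53.7, 79.1 and 24 CPM at E17.5, Cyb561d1 7.89 and 17.3 CPM and 6.73, 1.64 and 5.4 CPM, and Ppp1r3b, for a glycogen-targeting phosphatase subunit, 3.48 and 6.41 CPM and 17.8, 11.7 and 44.5 CPM. Over all 7 rising genes the median change of TPPB against control explants was -0.06, and over the 5 falling genes -3.69, beside 0.03 over all genes.

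With DESeq2 in place of edgeR, 25 genes met the rule for a copied course, 8 rising and 17 falling. Socs2, for a suppressor of cytokine signalling, was among the 8 rising, and Glul, for glutamine synthetase, and the sterol synthesis genes Fdps, Idi1 and Msmo1 were among the 17 falling. DESeq2 also placed 90 genes short of E17.5, 54 of which rise along the course.

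TPPB changed 374 genes in the same direction against both control explants and E17.5, 25 upward and 349 downward. Among them 3 (Apoc2, Apom and Soat2) were also called in that direction between E17.5 and E14.5, a comparison with 12 calls in all. With DESeq2, which called 328 genes there, it was 29 of 658, all of them falling. A gene that was not called between the embryo stages may still change between them. The comparisons with control explants and with E17.5 share the TPPB sums, so agreement between them is no independent support. Of the 349 genes, 69 had 0 reads in both TPPB sums, 160 had a mean over 100 CPM in E17.5 cells and 20 were members of the hepatocyte list. Without TMM factors the split was 113 upward and 272 downward, and without 1 TPPB cell that had haemoglobin reads it was 25 and 368. Against a log2 change of 1 it was 4 and 224. With 1 control sum left out it was 10 to 15 upward and 313 to 330 downward. With 1 E17.5 sum left out it was 12 to 13 and 280 to 308. Of the 25 upward genes, 9 to 11 remained without a control sum and 11 to 12 without an E17.5 sum. Of the 349 downward, 301 to 315 and 279 to 296 remained. With either TPPB sum left out, which leaves that group 1 sum, fewer genes remained in both directions than in these settings.

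The 25 genes above both control explants and E17.5 include several that had no reads at all in control explants or in E17.5 cells. Uts2b, for a peptide hormone of the urotensin family (chr16:27353300-27370200), had 299 and 81.7 CPM in TPPB cells and 0 reads in control explants, E14.5 and E17.5. It was at least 482-fold higher than at E17.5 (adjusted p 0.00333) and at least 362-fold higher than in control explants (adjusted p 0.00325). Reads came from all 10 cells of the first TPPB set and from 6 of 12 of the second. Hsd11b2, for the enzyme that inactivates glucocorticoids, and Vtcn1, for an inhibitory ligand of T cells, likewise had 0 reads in all these other sums. Their TPPB levels were 60.6 and 9.99 CPM and 23 and 7.93 CPM, from 11 of 22 and 13 of 22 cells. Sox17, for a transcription factor of endoderm and the extrahepatic biliary tree, was looked at after its values were seen, and had 44.6 and 30.7 CPM in TPPB cells and 0 reads in control explants, E14.5 and E17.5.

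Other members of the 25 had some reads in E17.5 cells. Anxa1, for a calcium-dependent membrane protein, had 106 and 67.1 CPM in TPPB cells, 0, 0.231 and 0 CPM in control explants and 0.729, 0 and 0 CPM at E17.5 (8.17 ± 2.03, adjusted p 0.0347). Fermt1, for kindlin-1, which activates integrins, had 190.3 and 172 CPM in TPPB cells, 29.2, 9.25 and 41.9 CPM in control explants and 8.58, 27 and 8.9 CPM at E17.5 (3.63 ± 0.69, adjusted p 0.00418). Hmga2, for a chromatin protein of fetal and growing tissue, had 112 and 119.9 CPM in TPPB cells, 29.5, 25 and 20.7 CPM in control explants and 25.5, 23.2 and 21.7 CPM at E17.5 (2.30 ± 0.45, adjusted p 0.00501). For Fermt1 and Hmga2 both TPPB sums lay above all control and embryo sums. Over the 25 genes the change against E17.5 ran from 0.99 to 13.87, with the upper end set by genes without reads on one side. Tagln and Tpm4, for actin-binding proteins, and Cdh3 and Jup, for junction proteins, also belong to them.

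**Figure D3:**
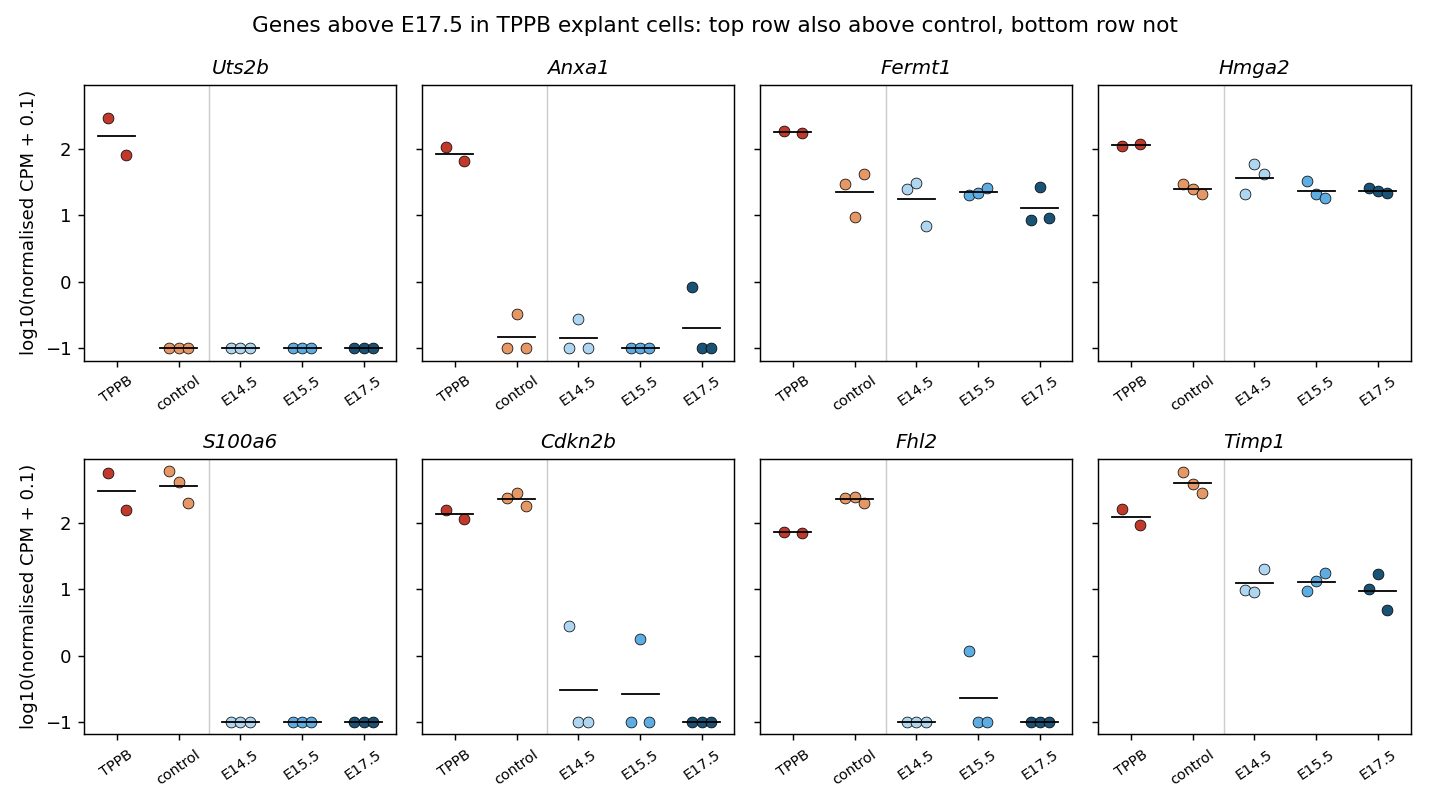
Levels of 8 genes that were higher in TPPB cells than at E17.5, as log10 of normalised CPM plus 0.1, for TPPB and control explants and for embryos at E14.5, E15.5 and E17.5; each point is 1 sum and each bar the mean of the log values. In the top row (Uts2b, Anxa1, Fermt1 and Hmga2) the TPPB points are above the control points, and in the bottom row (S100a6, Cdkn2b, Fhl2 and Timp1) control explants are at the level of TPPB explants or above it.

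Several genes that were higher in TPPB cells than at E17.5 were also high in control explants. The 10 largest rises over E17.5 were S100a6, Uts2b, Cdkn2b, Car9, Hs3st1, Nes, Fhl2, Prss22, Wnt7a and Kcnn4, each without a read in the E17.5 sums. S100a6, for a calcium-binding protein of growing and stressed cells, had 566 and 156 CPM in TPPB cells and 599, 408 and 197 CPM in control explants, and was at least 915-fold higher than at E17.5 (adjusted p 4.3e-05). Cdkn2b, for the cell cycle inhibitor p15, had 157 and 115 CPM in TPPB cells and 236, 285 and 179.5 CPM in control explants, at least 344-fold above E17.5. Fhl2, for a LIM-domain cofactor, was lower in TPPB cells than in control explants in every sum, with 72.7 and 70.3 CPM and 238, 244 and 196 CPM, though that difference was not called (adjusted p 0.262). Nes, for the filament protein nestin, and Wnt7a, for a Wnt ligand, had 70.2 and 72.6 CPM and 85.4 and 39.4 CPM in TPPB cells and 1.33, 5.55 and 5.95 CPM and 0, 0.347 and 0 CPM in control explants, with neither difference called. Hs3st1, for a heparan sulfate sulfotransferase, and Prss22, for a serine protease, had 60.7 and 109 CPM and 86.9 and 45.6 CPM in TPPB cells.

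The reactive and barrier epithelium genes, which injured and stratifying epithelia share, gave more calls upward than any other list in the comparison with E17.5. Of 20 tested members, 9 were higher than at E17.5 and none was lower, beside 1.41% and 3.75% of all genes, with a median of 6.77, or 3.87 with 7 members at their bound. Leaving out single sums gave 3 to 6 calls. Against control explants, 1 of the 20 was higher and 2 were lower, beside 1.51% and 4.28% of all genes, with a median of 0.19. Control explants had 8 of the 20 higher than E17.5, beside 4.26% of all genes. Cd44, for the hyaluronan receptor, had 289 and 141 CPM in TPPB cells, 89.6, 39.1 and 28 CPM in control explants and 0.0561, 0 and 0.198 CPM at E17.5 (10.80 ± 1.67, adjusted p 0.000769). Anxa3, for a further annexin, had 707 and 294 CPM in TPPB cells and 6.73, 7.09 and 5.14 CPM at E17.5 (6.32 ± 1.36, adjusted p 0.0137). Clu, for the chaperone clusterin, had 13185 and 6467 CPM in TPPB cells, 12271, 4486 and 4739.6 CPM in control explants and 3345, 2643 and 3422 CPM at E17.5 (1.65 ± 0.43, adjusted p 0.0355). Krt20, a keratin of gut and bladder surface cells, was above E17.5 and below control explants, with 45.7 and 33 CPM in TPPB cells, 118, 279 and 177 CPM in control explants and 7.23, 2.73 and 14.2 CPM at E17.5.

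**Figure D4:**
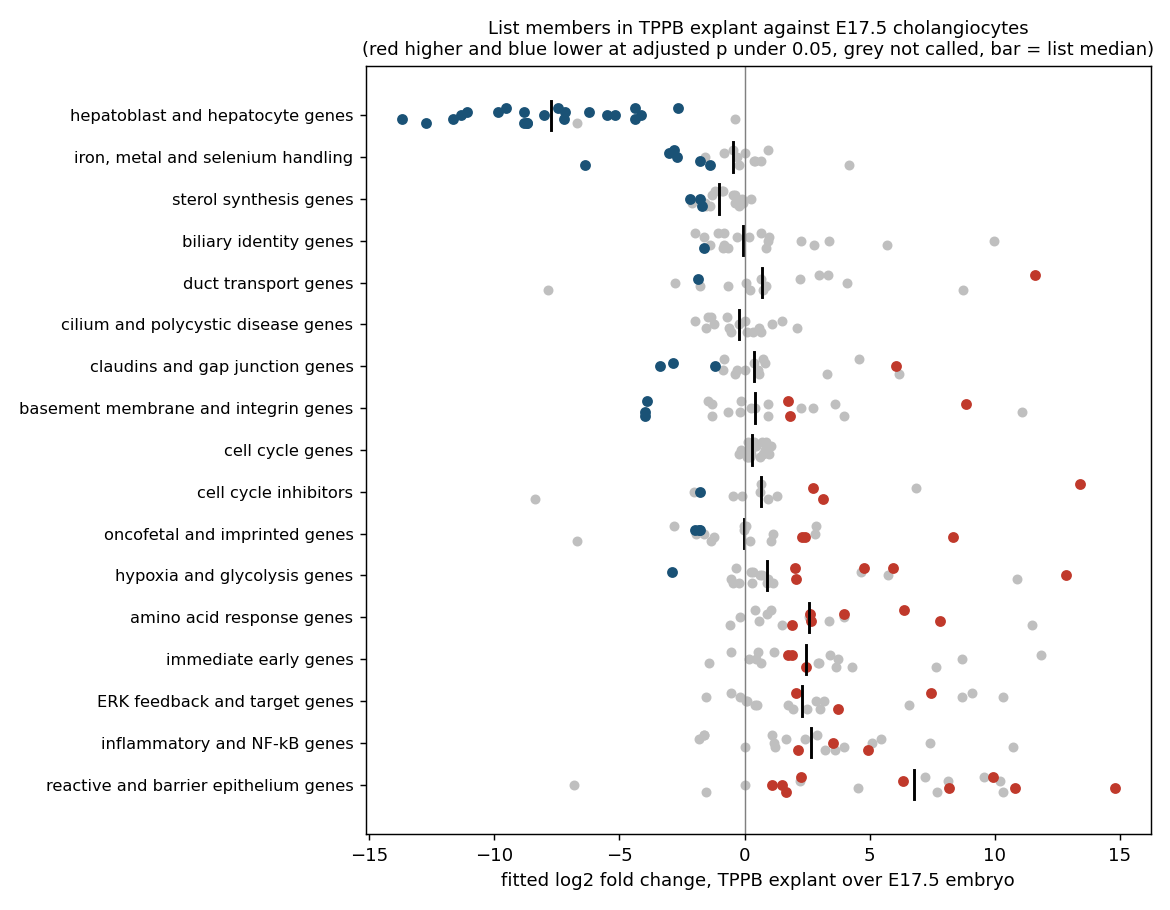
Fitted log2 fold changes of TPPB explant over E17.5 embryo cells for the members of 17 gene lists, 1 point per gene and 1 bar per list median; values of genes without reads on one side depend on the prior count of the fit. The hepatocyte list stands at the left with a median of -7.75, the biliary list near 0 with -0.06, and the reactive epithelium list at the right with 6.77.

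Readouts of protein kinase C and ERK signalling were mixed. Of 20 ERK feedback and target genes, 3 were higher than at E17.5 and none was lower, beside 1.41% of all genes, and none was called against control explants. Plaur, for the urokinase receptor, had 239 and 150.4 CPM in TPPB cells, 26.2, 203 and 81.9 CPM in control explants and 0, 0 and 2.9 CPM at E17.5 (7.43 ± 1.45, adjusted p 0.00724). Spry2, for a feedback inhibitor of receptor signalling, had 185 and 303 CPM in TPPB cells, 95.6, 112 and 106 CPM in control explants and 40.2, 82.3 and 51.9 CPM at E17.5 (2.07 ± 0.50, adjusted p 0.0214). Ier3, for a survival factor induced early by growth signals, had 216 and 504 CPM in TPPB cells and 26.9, 21 and 31.7 CPM at E17.5. Of 19 immediate early genes, Junb, Ier2 and Zfp36 were higher than at E17.5, beside 1.41% of all genes. Junb was lower in TPPB cells than in control explants in each sum, at 134 and 253 CPM and 754, 773 and 579.5 CPM. None of 10 kinase C isoform genes and none of 10 EGF family genes was called against E17.5. Prkcd, a kinase C isoform activated by diacylglycerol, had 51.7 and 79.1 CPM in TPPB cells and 57.4, 56.4 and 36.6 CPM at E17.5.

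Promoter windows of Cldn4 and Plaur, both raised over E17.5, are printed because they hold the letters TGACTCA, to which AP-1 factors bind. The sequences are from RefSeq (GRCm38.p6) and run on the gene's strand from 250 bases before to 50 bases after its start. Capitals mark the match. Both strands were searched, so that TGAGTCA, its reverse complement, also counted.
Cldn4 (chr5:134946885-134947184, minus strand): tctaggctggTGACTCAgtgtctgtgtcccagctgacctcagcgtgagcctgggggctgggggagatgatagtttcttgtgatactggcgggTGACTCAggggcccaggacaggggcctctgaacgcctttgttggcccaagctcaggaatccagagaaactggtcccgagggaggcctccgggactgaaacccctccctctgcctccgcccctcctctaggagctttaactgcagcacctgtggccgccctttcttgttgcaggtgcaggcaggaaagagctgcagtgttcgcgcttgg
Plaur (chr7:24462233-24462532, plus strand): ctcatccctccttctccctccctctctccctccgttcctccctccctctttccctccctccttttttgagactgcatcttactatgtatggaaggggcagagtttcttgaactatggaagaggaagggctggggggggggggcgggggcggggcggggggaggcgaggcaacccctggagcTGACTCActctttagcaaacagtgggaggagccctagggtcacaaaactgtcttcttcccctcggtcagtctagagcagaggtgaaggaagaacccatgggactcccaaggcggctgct

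The matches begin 240 and 158 bases before the start in Cldn4 and 69 bases before it in Plaur. Of the genes higher in TPPB cells than at E17.5 that have such a window, 17 of 162 (10.49%) hold the letters on either strand, and of those lower, 29 of 413 (7.02%). The share was 7.69% among genes higher and 7.89% among genes lower in TPPB cells than in control explants. Among genes higher in control explants than at E17.5 it was 8.28%, and among those lower 5.56%. It was 4.79% among all tested genes with a window and 5.95% among all 27025 windows in the table. These are counts of letters in a window and do not show that a factor binds there.

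Genes of ductal physiology and structure gave few calls. Of 16 duct transport genes, 1 was higher (Kcnn4) and 1 was lower than at E17.5, close to the 1.41% and 3.75% of all genes. Kcnn4, for a calcium-activated potassium channel, had 38 and 41.3 CPM in TPPB cells and 28.6, 7.86 and 2.19 CPM in control explants, and was at least 100.4-fold above E17.5 (adjusted p 0.0087). Cftr, for the chloride channel of mature ducts, had 8.88 and 1.96 CPM in TPPB cells and no read at E17.5, and Sctr, for the secretin receptor, had 3.06 and 13.9 CPM and 6.56, 11.2 and 22.7 CPM, with neither called. None of 17 cilium and polycystic disease genes was called in either direction.

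Junction and matrix genes moved in both directions. Cldn4, for a claudin of tight junctions (chr5:134945000-134947000), had 429 and 474 CPM in TPPB cells, 212, 649 and 189 CPM in control explants and 10.2, 0 and 8.83 CPM at E17.5 (6.04 ± 1.00, adjusted p 0.00142). It was the only member of 17 junction genes called higher, and Gjb1, Gjb2 and Cldn12 were called lower, beside 1.41% and 3.75% of all genes. Gjb1, for the gap junction protein of hepatocytes, had 29.9 and 58.8 CPM in TPPB cells, 889, 336 and 194 CPM in control explants and 503, 450.4 and 416 CPM at E17.5 (-3.36 ± 0.55, adjusted p 0.00132). Of 21 basement membrane and integrin genes, the integrin chains Itga2, Itga3 and Itga6 were higher than at E17.5, beside 1.41% of all genes. The matrix genes Nid1, Nid2 and Lamb2 were lower, beside 3.75%. Itga6, for the integrin chain that binds laminin, had 91.5 and 99.4 CPM in TPPB cells and 35.7, 17.2 and 29 CPM at E17.5 (1.80 ± 0.43, adjusted p 0.0198). Nid1, for the matrix linker nidogen, had 20.3 and 6.79 CPM in TPPB cells, 624, 245 and 329 CPM in control explants and 188, 137 and 309 CPM at E17.5 (-3.97 ± 0.73, adjusted p 0.00333).

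Among 18 genes of proteases and the plasminogen system, 4 were higher than at E17.5, Plat, Plaur and Timp1 among them, beside 1.41% of all genes. Adamts9 alone was lower, beside 3.75%. Timp1, for an inhibitor of metalloproteinases, had 162 and 94 CPM in TPPB cells, 581, 388 and 284 CPM in control explants and 10.1, 16.9 and 4.74 CPM at E17.5 (3.64 ± 0.49, adjusted p 0.000194). Adamts9, for a secreted metalloproteinase, had 7.04 and 16.1 CPM in TPPB cells, 0.664, 0 and 0 CPM in control explants and 371, 210.5 and 361 CPM at E17.5 (-4.76 ± 1.08, adjusted p 0.0165). TPPB cells thus lay between control explants and E17.5 for this gene.

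Notch, Hippo and Wnt genes, which act in duct formation, gave few calls against E17.5. Over all genes, 1.41% were called higher and 3.75% lower there. Of 13 Notch genes, Dll1 was lower, with no reads in TPPB cells and 10.4, 41.4 and 16.2 CPM at E17.5, at least 121-fold (adjusted p 0.0131). Jag1, the ligand that patterns the ducts, had 139 and 229.7 CPM in TPPB cells, 0.332, 12.4 and 4.15 CPM in control explants and 87.9, 53.4 and 93.8 CPM at E17.5, and was called only against control explants (4.96 ± 0.71, adjusted p 0.000341). Hes1, a Notch target, had 67.3 and 221 CPM in TPPB cells and 226, 158 and 162 CPM at E17.5 and was not called. Of 15 genes that YAP regulates, Ajuba was lower than at E17.5, while Ctgf, the best known of its targets, had 343 and 89.7 CPM in TPPB cells, 1.99, 3.47 and 11.7 CPM in control explants and 202, 176 and 93.7 CPM at E17.5. Ctgf was higher than in control explants (5.15 ± 0.85, adjusted p 0.00116). Of 19 TGF-beta and BMP response genes, Id1 was higher and Bambi lower than at E17.5, and none of 11 Wnt targets was called.

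Amino acid response and glycolysis genes were called mostly upward. Of 17 amino acid response genes, 6 were higher than at E17.5 and none was lower, beside 1.41% and 3.75% of all genes, with a median of 2.58. Atf4, the transcription factor of that response, had 303 and 274 CPM in TPPB cells, 136, 301 and 463 CPM in control explants and 62.8, 99.8 and 70.1 CPM at E17.5 (1.90 ± 0.40, adjusted p 0.0101). Of 21 hypoxia and glycolysis genes, Slc2a1, Hk2, Pfkp, Car9 and Aldoa were higher and Ndrg1 was lower, beside the same 2 shares. Summed over the list, the levels were 2984 and 7655 CPM in the TPPB sums and 2484, 2671 and 3293 CPM in the E17.5 sums, so only the second TPPB sum lay apart. By the mean of log2(TPM + 1) over the list in each cell, 7 of 22 TPPB cells were above every E17.5 cell, 5 of them in the second set, while the median cell was at 3.86 in TPPB and 3.97 at E17.5. Hk2, for a hexokinase of growing cells, had 58.2 and 107 CPM in TPPB cells, 79.3, 119.6 and 78.5 CPM in control explants and 3.31, 2.18 and 3.43 CPM at E17.5 (4.76 ± 0.58, adjusted p 7.1e-05). Neither list had a member called higher than in control explants.

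Calls in sterol synthesis and metal handling were all downward against E17.5. Of 18 sterol genes, 3 were lower than at E17.5, Hmgcs1 and Sqle among them, beside 3.75% of all genes, and 11 were lower than in control explants, beside 4.28%, with medians of -1.04 and -2.09. Sqle, for squalene epoxidase, had 46.6 and 107 CPM in TPPB cells, 179.6, 202 and 277 CPM in control explants and 232, 296 and 253 CPM at E17.5 (-1.76 ± 0.35, adjusted p 0.00575). Of 17 genes of iron, metal and selenium handling, 6 were lower than at E17.5 and 9 than in control explants, beside the same 2 shares. Against control explants 1 of them was higher, beside 1.51% of all genes. Sepp1, for the selenium carrier that hepatocytes secrete, had 18.1 and 53.8 CPM in TPPB cells, 8649, 5096 and 4938 CPM in control explants and 3243, 1992 and 3649 CPM at E17.5 (-6.36 ± 0.67, adjusted p 1.84e-05). Slc40a1, for the iron exporter ferroportin, had 124 and 66.9 CPM in TPPB cells and 629, 612 and 642 CPM at E17.5, and the metallothionein genes Mt1 and Mt2 were lower against both groups.

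Proliferation genes gave no call against E17.5 in 20 members, and Mki67, for a protein of dividing cells, had 19.8 and 57.5 CPM in TPPB cells and 29.8, 42.8 and 33.9 CPM at E17.5. The mean of log2(TPM + 1) over the list in each cell had a median of 3.92 in TPPB cells and 2.20 in control cells. In the embryo that median was 3.93 at E14.5, 2.56 at E15.5 and 2.46 at E17.5. Ranges overlapped, at 2.00 to 7.46 in TPPB cells and 1.24 to 7.36 at E17.5, and 1 TPPB cell was above every E17.5 cell. Inhibitors of the cycle were called in 4 of 13 members, 3 higher and 1 lower, beside 1.41% and 3.75% of all genes. Cdkn1a, for p21, had 426 and 394 CPM in TPPB cells, 232, 178 and 164 CPM in control explants and 54.7, 39.3 and 46.1 CPM at E17.5 (3.13 ± 0.73, adjusted p 0.0173), and Ccng1 and Cdkn2b were also higher. Cdkn1c, for p57, had 80 and 66.9 CPM in TPPB cells, 53.8, 29.5 and 48.5 CPM in control explants and 202, 201 and 359.9 CPM at E17.5 (-1.79 ± 0.37, adjusted p 0.00845). Of 20 oncofetal and imprinted genes, Hmga2, Mdk and Mest were higher and Igf2, Peg3 and Cdkn1c lower, beside the same 2 shares. Igf2, for a fetal growth factor, had 148 and 419 CPM in TPPB cells, 3852, 1811 and 1998 CPM in control explants and 1269, 737 and 1369.5 CPM at E17.5 (-1.99 ± 0.47, adjusted p 0.0206).

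Inflammatory genes gave 3 calls, all upward. Of 20 inflammatory and NF-kB genes, Cxcl16, Nfkbia and Nfkbiz were higher than at E17.5, beside 1.41% of all genes. In control explants 9 of the 20 were higher than at E17.5, beside 4.26% of all genes. Against control explants Lcn2 and Saa3 were lower in TPPB cells, beside 4.28% of all genes. Cxcl16, for a membrane-bound chemokine, had 294 and 108 CPM in TPPB cells and 6.06, 11.7 and 2.44 CPM at E17.5 (4.93 ± 1.25, adjusted p 0.0343). Of 16 antigen presentation and interferon genes, Bst2 was higher than at E17.5, beside 1.41% of all genes. B2m, H2-K1 and H2-D1 were lower than in control explants, beside 4.28%.

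Single cells show how evenly these states were held. A list score was taken for each cell as the mean of log2(TPM + 1) over the list's genes. The hepatocyte score had a median of 1.98 in TPPB cells (1.10 to 5.05), 8.88 in control cells and 8.58 in E17.5 cells (5.80 to 10.65). Every one of the 22 TPPB cells scored below every E17.5 cell. The highest TPPB cell, at 5.05, was in the first set, and the second set reached 3.67. The biliary score had a median of 6.86 in TPPB cells, 3.53 in control cells, 4.44 at E14.5, 5.45 at E15.5 and 5.95 at E17.5, and 3 of the 22 TPPB cells scored above every E17.5 cell. TPPB cells covered a narrower range of it, 5.72 to 7.55, than E17.5 cells, 3.91 to 7.18. The reactive epithelium score had a median of 4.09 in TPPB cells, 3.09 in control cells and 1.52 in E17.5 cells, and again all 22 TPPB cells lay above every E17.5 cell. Cells of 1 group share their sets, so these counts are descriptions and not tests.

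**Figure D5:**
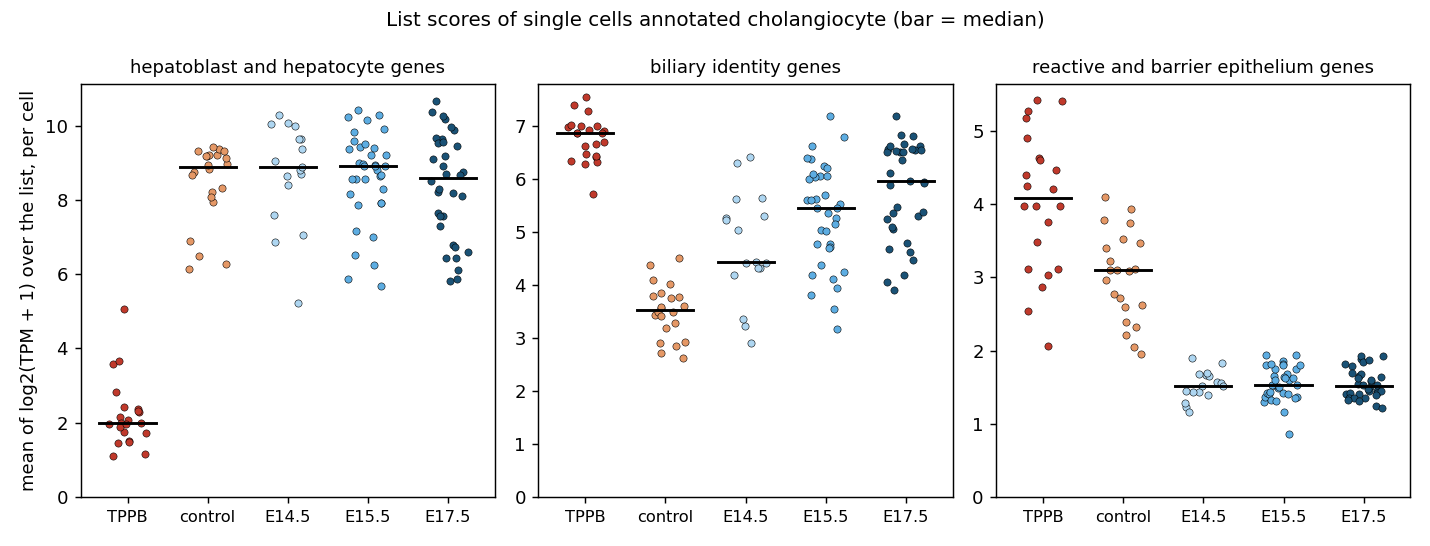
List scores of single cells annotated cholangiocyte, as the mean of log2(TPM + 1) over the genes of the hepatocyte, biliary and reactive epithelium lists, for TPPB and control explants and for embryos at E14.5, E15.5 and E17.5; each point is 1 cell and each bar the group median. TPPB cells lie below the E17.5 cells for hepatocyte genes (medians 1.98 and 8.58), in the upper part of their range for biliary genes (6.86 and 5.95) and above them for reactive genes (4.09 and 1.52).

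Some markers of other cell types were present in many TPPB cells. Counts of called markers here stand beside 1.41% of all genes called higher than at E17.5. Summed over the mesenchymal list, of which 1 of 8 tested members (Tagln) was higher, TPPB sums had 273 to 278 CPM and E17.5 sums 264 to 320 CPM. The list's median change was 3.40, or 0.91 with 4 members at their bound. Its score per cell had a median of 0.99 in TPPB cells and 0.62 in E17.5 cells, with 5 TPPB cells above every E17.5 cell. The fibroblast collagen genes Col1a2 and Col3a1 and Dcn had 0 reads in TPPB cells, and Col1a1 had 13.9 and 5.32 CPM. Tagln, for an actin-binding protein of smooth muscle, had reads in 15 of 22 TPPB cells, with a median of 107 TPM, and in 1 of 34 E17.5 cells. Mesothelial markers, with 0 of 6 called, summed to 113 and 68.3 CPM in TPPB cells and 19.5 to 37.9 CPM at E17.5. Aldh1a2, for the retinoic acid enzyme of mesothelium, had reads in 14 of 22 TPPB cells (median 50.1 TPM) and in 3 of 34 E17.5 cells, and Msln, for mesothelin, in 6 of 22 and in none. The mesothelial score per cell had a median of 0.77 in TPPB cells and 0.04 in E17.5 cells, and 7 TPPB cells were above every E17.5 cell. The part of these markers in the differences was not tested. Endothelial markers, with 1 of 3 higher (Flt1), ranged in sum over 4.55 to 34.4 CPM and over 0.461 to 6.54 CPM in the same groups, with Kdr at 0. Blood markers, with 4 of 9 higher, all of them globin genes, summed to 7.32 and 772 CPM in TPPB cells and up to 10.9 CPM at E17.5. Of 13674 globin reads in TPPB cells, 99.9% came from 1 cell of the second set, in which they took 1.30% of all reads, and 6 of 22 cells had any. Without that cell 225 genes were higher and 576 lower than at E17.5.

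Sex differed between the groups and the sets. Xist, the RNA of the inactive X chromosome of female cells, had reads in all 12 cells of the second TPPB set and in 2 of 10 cells of the first. Among E17.5 cells 3 of 34 had Xist reads, 5 reads in all. Ddx3y, a Y-linked gene, had reads in 9 of 10 cells of the first TPPB set, in none of the 12 of the second and in 33 of 34 E17.5 cells. Eif2s3y, also Y-linked, had reads in 9 of 10 cells of the first TPPB set and in none of the second. By these 3 genes the second TPPB set reads as female and the E17.5 cells as mostly male. Kdm5d and Uty, Y-linked genes with close copies on the X chromosome, do not follow, with reads in 12 and 8 of the 12 cells of the second set, although they had only 60 and 19 reads there, against 348 and 194 in the first. The part of sex in the differences given here was not tested.

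Explants given TPPB together with U0126, which blocks the MEK kinases upstream of ERK, are of another deposit round and only their levels are set beside the rest. Their 2 sums had 9879 and 23056 CPM for Alb, 41936 and 83154 CPM for Afp and 449.7 and 219 CPM for Krt19. Of the 25 genes above both control explants and E17.5, 9 had 0 reads in both sums, Uts2b, Anxa1 and Hsd11b2 among them, and 23 were lower in both than in either sum with TPPB alone. Kctd5, a subunit of ubiquitin ligases, was at 128.7 and 68.7 CPM with U0126 and at 129 and 102.8 CPM with TPPB alone. Vtcn1 was at 8.31 and 2.68 CPM with U0126 and at 23 and 7.93 CPM with TPPB alone. For both genes 1 sum with U0126 lay above the lower sum with TPPB alone. Iqgap1, for a scaffold of the cell cortex, was among the 23, at 234 and 80 CPM and at 449 and 309 CPM. No test was made between these sums and those with TPPB alone. The 25 genes were chosen for high levels with TPPB alone, so lower levels elsewhere partly follow from that choice. No share over all genes is given beside these counts. The 2 sums with U0126 also held fewer reads, 3728817 and 5588019 after TMM scaling, against 14068826 and 18411942 with TPPB alone. A count of 0 reads therefore says less there.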

How the data were processed

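RNA was measured in single fetal liver cells. The authors deposited raw read counts per gene and cell, unnormalized, in 1 table of 40824 genes and 92 ERCC spike-ins. TopHat2 2.1.0, Bowtie2, HTSeq 0.6.0 and GRCm38/mm10 are named in the submitters' processing notes. Gene length, another value the authors deposited in that table, served only for TPM per cell. Spike-ins were left out of library sizes. The cDNA protocol does not mark strand, so antisense partners share reads, as may near-identical copies such as Serpina1a and Serpina1b.

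Counts were summed per group and set number, with at least 2 cells, which left out 1 control cell alone in its set. The 18 sums of 7 groups (TPPB, control, U0126, TPPB+U0126, E14.5, E15.5 and E17.5, all EpCAM+ and annotated cholangiocyte) were fitted together by group, since TPPB has only 2 sums, with edgeR 4.0.16 in R 4.3.3: TMM, filterByExpr (minimum count 10) and the quasi-likelihood test, with 11 residual degrees of freedom. P-values were adjusted by Benjamini-Hochberg over 15060 genes. Where a side had no reads, the fold is a bound from 3 reads per library. Where a side had 1 to 3 reads in all, no fold is given. Intervals are 95%, from the t distribution.

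Copied genes were called between E17.5 and E14.5 and the same way between TPPB and control, and not called against E17.5 with a log2 difference under 1. Overshot genes were called the same way against control and E17.5. Short genes were called opposite to the course against E17.5. Genes were named as the 10 largest rises and falls (at least 10 CPM in the higher group, no overlap, reads in most of its cells, at least as many with as without), members of those classes and up to a few per list. The members and the lists were chosen with earlier results of these data known. The test was tried on simulated counts. Alternatives were DESeq2 1.42.0, other filters, sums, terms and weights, each sum left out, and, chosen after seeing the data, no TMM factors and no cell with haemoglobin reads. Same set numbers in 2 groups did not deviate together (r from -0.05 to 0.03). Some genes that the rules name are not reported here.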

Additional observations from a re-analysis of the deposited data

How the results depend on the processing

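Counts of called genes moved with the setting, and the cause was not tested. Against E17.5, TPPB cells had 778 calls, 1604 with DESeq2, 1690 with limma on mean log values per set (1007 higher and 683 lower), 393 against a log2 change of 1, and 385 to 559 with 1 sum left out. Against control explants the 873 calls became 1728 with DESeq2, 1789 with limma, 481 against a change of 1, 535 with only the 2 groups fitted and 450 to 778 with 1 sum left out. Control explants against E17.5 had 1148 calls, 2252 with DESeq2, 389 against a change of 1 and 601 to 1094 with 1 sum left out. E17.5 against E14.5 had 12 calls, 328 with DESeq2, 104 without a filter, 1 against a change of 1, 25 without the U0126 sums, 54 with 2 groups, 118 with limma and 1 to 8 with 1 sum left out. E15.5 against E14.5 had 1 call, 55 with DESeq2, 5 without a filter, 0 without the U0126 sums, with 2 groups, with the block or with limma, and 0 to 2 with 1 sum left out. Copied genes numbered 2, 25 with DESeq2, 11 without a filter, 0 against a change of 1, 7 without the U0126 sums, 4 with 2 groups, 9 with limma and 0 to 4 with 1 sum left out. Overshot genes numbered 374, 658 with DESeq2, 228 against a change of 1, 249 with 2 groups, 827 with limma (595 upward and 232 downward) and 226 to 363 with 1 sum left out. Genes short of E17.5 numbered 2, 90 with DESeq2, 34 without a filter, 0 against a change of 1, 4 without the U0126 sums, 14 with 2 groups, 0 with the block, 56 with limma, 0 with the list of E15.5 against E14.5 and 0 to 4 with 1 sum left out. The median TPPB change of genes higher at E17.5 was -0.06, 1.62 with deposit round as a term, -1.20 with the block and -2.23 to 0.58 with 1 sum left out. For genes lower at E17.5 it was -3.69, -0.90 with DESeq2, -2.91 without the U0126 sums, -2.94 with deposit round, -8.48 with the block, -0.12 with limma and -13.09 to -3.26 with 1 sum left out, each over the list that setting gives. Set numbers as a replicate block, which the labels do not tie to a shared source, gave 469 calls against E17.5 and 753 for control explants. Among the named genes called against E17.5, Hbb-bs alone changed sign, to -1.59 without the second TPPB sum, and its change ran from that to 13.41 with 1 sum left out. Of 101 named genes called against E17.5, 95 of 99 remained with DESeq2, 89 with limma, 67 with the block and 57 to 70 with 1 sum left out. The number of TPPB sums, 2, limits the precision.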
